A study of Mus musculus with 23 samples.

Results

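The tripartite motif (TRIM) genes outside the TIF1 group were followed across mouse embryoid bodies (EBs) and embryonic stem cells (ESCs). All symbols made of Trim, a number and at most 1 letter from a to d were taken from the table of expression values, which gave 67 genes. The 4 TIF1 genes (Trim24, Trim28, Trim33 and Trim66) and Trim71 were left out by name. The 62 genes that remained are of 29032 symbols in the table. EBs are clusters of cells that grow from ESCs in suspension once leukaemia inhibitory factor has been taken out of the medium, and they start to differentiate.

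TRIM proteins carry a RING finger, 1 or more B-box zinc fingers and a coiled coil, and most act as E3 ubiquitin ligases. The part that follows the coiled coil differs between members and selects the partner: a PRY-SPRY domain in many antiviral members, NHL repeats, a transmembrane stretch, or a domain tied to microtubules. Many members are induced by interferon and restrict viruses, and some have been studied in pluripotent cells or in the early embryo. TRIM33, the TIF1 member that the study removed, works beside SMAD2 and SMAD3 in Nodal and activin signalling.

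RNA was sequenced from 5 groups of 2 libraries. Trim33-null and Trim33 wild-type (WT) EBs at day 2.5, both of C57Bl/6J background, received activin A (50 ng/ml, 2 h) or SB431542, an inhibitor of the type I receptors of activin and Nodal. ESCs of the line E14, labelled wild type and kept with leukaemia inhibitory factor, received the same activin treatment. EBs and ESCs were grown in medium with 15% serum, so neither arm was free of other ligands. SB431542 was given for 1 h by the protocol and for 2 h by the sample titles, and its dose is 10 in micromolar or in millimolar depending on the label. Whether the paired libraries of a group are separate cultures is not stated, and the p-values therefore cover only the spread between these libraries, which may be technical. The null EBs carry the numbers 1 and 4 in the sample titles and the numerals I and II in the table, and the labels do not say whether these are clones. Both ESC titles hold the letters LKO, which no label explains.

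Expression values are FPKM, fragments scaled by gene length and library size. The table gives no counts, so depth is unknown and no counting interval can be set. Trim33 itself was at 2.23 to 2.83 FPKM in the 4 null libraries, against 10.1 to 11.4 FPKM in the 4 WT libraries, and at 6.25 and 6.60 FPKM in ESCs. The genotypes also differed in marker genes. Summed FPKM of 5 naive pluripotency markers was 43.2 to 46.3 in null EBs and 17.3 to 24.0 in WT EBs, and 283 to 284 in ESCs. For 4 epiblast markers it was 98.5 to 164 in null EBs and 257 to 265 in WT EBs. For 4 fibroblast markers it was 5.45 to 20.4 in null EBs and 2.16 to 4.77 in WT EBs, with both libraries of column II above both of column I in the null. For 6 markers of 2-cell-like cells it was 25.3 to 46.7 in null EBs, 2.33 to 9.66 in WT EBs and 28.9 to 31.8 in ESCs. In bulk RNA, fewer cells of a type and less RNA per cell cannot be told apart.

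Promoter sequences are shown for members on which the results turn. They come from RefSeq, build GRCm38.p6, run in the direction of the gene from 250 bases before its start to 50 after it, and were present for 48 of the 62 members in 61 windows. The first set is Trim12c, Trim12a and Trim5 of chromosome 7, close relatives in tandem of which Trim12c was called lower in null EBs, Trim12a was not called and Trim5 was too low to be tested. Trim21 of the same chromosome is shown with them. Capitals mark an interferon-stimulated response element (ISRE) motif, GAAA followed after any 2 bases by another GAAA, on either strand. The windows lie on the minus strand at chr7:104353300-104353599 (Trim12c), chr7:104315446-104315745 (Trim12a), chr7:104288057-104288356 (Trim5) and chr7:102565433-102565732 (Trim21).
Trim12c: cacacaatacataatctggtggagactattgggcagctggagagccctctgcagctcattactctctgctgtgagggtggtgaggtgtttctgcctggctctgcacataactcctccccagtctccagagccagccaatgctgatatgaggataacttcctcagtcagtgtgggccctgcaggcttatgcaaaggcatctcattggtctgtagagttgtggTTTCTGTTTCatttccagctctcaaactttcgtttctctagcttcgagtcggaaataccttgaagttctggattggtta
Trim12a: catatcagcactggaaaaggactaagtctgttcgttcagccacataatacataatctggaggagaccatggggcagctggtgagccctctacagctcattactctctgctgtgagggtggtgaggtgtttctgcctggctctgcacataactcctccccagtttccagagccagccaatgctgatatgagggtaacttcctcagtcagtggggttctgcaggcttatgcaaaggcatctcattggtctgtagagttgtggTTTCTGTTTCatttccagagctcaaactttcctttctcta
Trim5: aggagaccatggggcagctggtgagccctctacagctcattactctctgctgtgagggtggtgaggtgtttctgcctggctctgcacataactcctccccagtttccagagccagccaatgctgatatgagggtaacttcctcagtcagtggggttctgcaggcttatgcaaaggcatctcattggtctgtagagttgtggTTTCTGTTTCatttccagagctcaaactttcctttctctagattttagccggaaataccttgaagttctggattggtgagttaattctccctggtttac
Trim21: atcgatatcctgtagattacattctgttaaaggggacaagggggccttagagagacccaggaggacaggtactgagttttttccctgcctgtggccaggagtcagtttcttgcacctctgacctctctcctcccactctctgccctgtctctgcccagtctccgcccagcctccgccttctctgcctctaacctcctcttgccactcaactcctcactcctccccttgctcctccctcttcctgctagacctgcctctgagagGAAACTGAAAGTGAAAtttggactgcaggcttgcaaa

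The Trim12a and Trim5 windows shared an identical run of 241 bases, and Trim12c shared a run of 71 bases with each of them. All 3 carried the same ISRE letters, and in Trim21 a pair of matches overlapped. In all, 10 member windows from 9 genes held the ISRE motif, 16.4% of the member windows, against 3.44% of the 32851 windows of all genes. The 9 genes were Trim2, Trim5, Trim12a, Trim12c, Trim21, Trim26, Trim30a, Trim30d and Trim34a. Of these, Trim5, Trim12a, Trim12c, Trim30a, Trim30d and Trim34a lie near each other on chromosome 7, so the matches cannot be counted as separate cases. The motif AATNNACA, bound by the SMAD partner FOXH1, was in 3 member windows (4.92%), against 12.2% of all windows. The motif GTCTAGAC, a SMAD palindrome, was in no member window, against 0.213% of all windows. Both were searched on either strand, and a match is a match of letters only.

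The second set is the pair Trim61 and Trim60 of chromosome 8, chosen because Trim61 had the largest change on the log2(FPKM + 1) scale among the members tested between genotypes. Trim75, Trim60 and Trim61 are neighbours in the annotation, with no protein-coding gene between them. RefSeq gives Trim61 and Trim60 the same start on the minus strand at chr8:65018639-65018938, so both entries hold the same 300 bases, and reads from a shared first part could be counted for either gene. Trim67, also on chromosome 8 (plus strand, chr8:124792769-124793068), is shown for its CpG content. It had the largest difference between activin and SB431542 among the members tested, but reached 1 FPKM only in activin libraries. That difference was not called in the fit without a term for the column numeral. Trim67 held 28 CpG in 300 bases, against 8 for Trim61 and a median of 7 over all windows. None of the 3 held any of the 3 motifs, so no letters are in capitals.
Trim61: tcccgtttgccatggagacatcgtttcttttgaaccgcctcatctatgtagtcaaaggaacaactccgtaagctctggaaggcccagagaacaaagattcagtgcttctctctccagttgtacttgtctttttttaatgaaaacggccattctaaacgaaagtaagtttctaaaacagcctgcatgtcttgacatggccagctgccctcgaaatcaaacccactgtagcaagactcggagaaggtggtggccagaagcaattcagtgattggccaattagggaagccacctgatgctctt
Trim60: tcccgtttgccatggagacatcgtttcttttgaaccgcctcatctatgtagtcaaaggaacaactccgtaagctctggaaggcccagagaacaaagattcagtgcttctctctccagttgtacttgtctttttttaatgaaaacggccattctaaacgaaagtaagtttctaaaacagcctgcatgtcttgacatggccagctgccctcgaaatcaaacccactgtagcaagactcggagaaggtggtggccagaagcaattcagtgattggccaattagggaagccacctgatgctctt
Trim67: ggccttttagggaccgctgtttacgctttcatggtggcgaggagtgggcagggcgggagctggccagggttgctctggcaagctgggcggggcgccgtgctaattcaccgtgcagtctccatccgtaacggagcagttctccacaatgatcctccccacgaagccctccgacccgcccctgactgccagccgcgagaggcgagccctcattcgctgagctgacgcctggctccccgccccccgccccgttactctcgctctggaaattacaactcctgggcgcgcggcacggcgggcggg

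The family was expressed over a wide range, from a listed 0 to 33.7 FPKM. By mean over the 10 libraries, 5 members were at 10 FPKM or more, 18 at 1 to under 10, 17 at 0.1 to under 1 and 22 under 0.1. Trim30c, a mouse relative of the antiviral Trim30a, was listed at 0 in all 10 libraries. The 62 members summed to 179 to 190 FPKM in the 8 EB libraries and 206 to 207 FPKM in ESCs, and the 4 highest made 42.2% to 46.9% of that sum in each library. CpG in the promoter followed the same classes: the median, over each gene's window with most CpG, was 18 for members with a mean of 1 FPKM or more (n = 17), 14 for 0.1 to under 1 (n = 15) and 2.5 for members under 0.1 FPKM (n = 16). This is a description across genes that share libraries and, in part, ancestry.

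**Figure D1:**
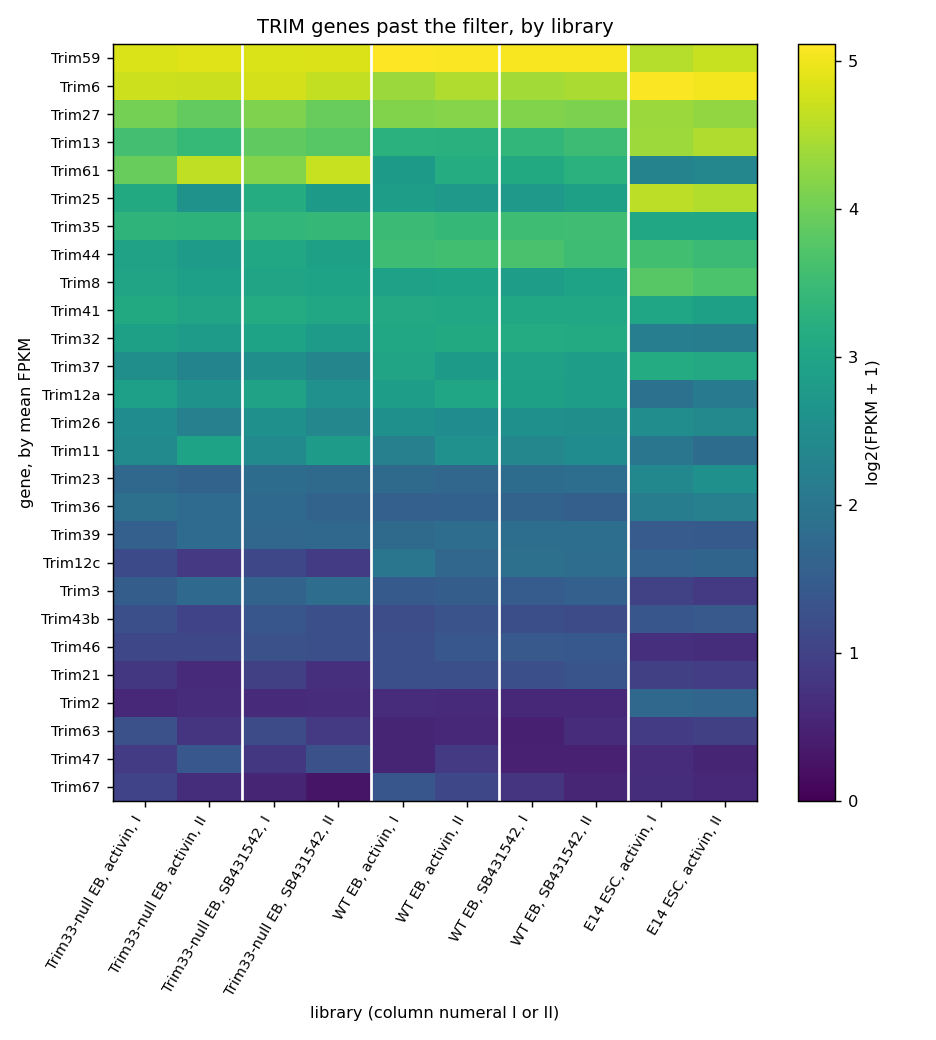
Expression of the 27 TRIM members with at least 1 FPKM in at least 2 of the 10 libraries, as log2(FPKM + 1), 1 row per gene by mean FPKM and 1 column per library. White lines part the groups, and Trim59 and Trim6 lie at the top with means of 29.0 and 24.9 FPKM.

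Trim59 and Trim6 led the family. Trim59, an endoplasmic reticulum protein with a transmembrane stretch, averaged 29.0 FPKM. Trim6, which has been reported to restrain Myc in mouse ESCs and to make unattached ubiquitin chains in the interferon response, averaged 24.9 FPKM. Trim27, which acts with the retromer and the WASH complex on endosomes, averaged 16.4 FPKM, Trim13, another transmembrane ligase of the endoplasmic reticulum, 12.6 FPKM, and Trim61 11.8 FPKM. The next 7 by mean were Trim25, Trim35, Trim44, Trim8, Trim41, Trim32 and Trim37, at 9.67 to 5.88 FPKM. Neighbours in this order overlapped in several cases, and Trim61 alone covered 3.90 to 24.8 FPKM over the 10 libraries.

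Tissue-restricted members were low. In the striated muscle list, Trim54, Trim55 and Trim72 never reached 1 FPKM and only Trim63, the atrophy ligase MuRF1, passed the filter. Skeletal and heart muscle markers summed to at most 1.13 FPKM in any library. Of the 6 members listed for the MHC cluster, Trim26 and Trim39 passed the filter and Trim10, Trim15, Trim31 and Trim40 were all under 0.1 FPKM by mean. Of the 9 genes with preimplantation or germline links, Trim61, Trim36 and Trim43b passed, while Trim43a and Trim43c, near-identical copies of Trim43b between which reads may have been split, did not. All 35 members that did not pass over 10 libraries stayed under 1 FPKM throughout. Among them the highest single-library values were 0.967 FPKM for Trim5 and 0.754 FPKM for Trim56, both of the antiviral list, and 0.648 FPKM for Trim45.

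Loss of Trim33 went with higher Trim61 and lower Trim12c and Trim44, under activin and under SB431542. By group mean, Trim61 in null EBs was at 2.75 times the WT level under activin and 2.55 times under SB431542. Trim12c was at 0.382 and 0.389 times the WT level, and Trim44 at 0.597 and 0.623 times, in the same order of treatments. Trim21 and Trim59 also fell in null EBs under activin, and Trim13 rose under SB431542. These calls come from limma on log2(FPKM + 1) over the 8 EB libraries, with Benjamini-Hochberg adjustment over 11317 genes and a threshold of 0.05. With no filter on low values, only the calls of Trim44, and of Trim59 under activin, were kept. With only the libraries compared, the call of Trim12c under SB431542 alone was kept. Of the 26 members tested, 5 (19.2%) were called under activin, against 8.09% of all genes, and 4 (15.4%) under SB431542, against 8.08%. Under activin 1 member was higher, against 3.4% of all genes, and 4 were lower, against 4.68%. Of these 4, Trim21 reached 1 FPKM only in WT EBs, and 3 passed the filter on both sides. Under SB431542 2 were higher, against 4.08%, and 2 lower, against 3.99%. No test of the list against other genes was run.

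**Figure D2:**
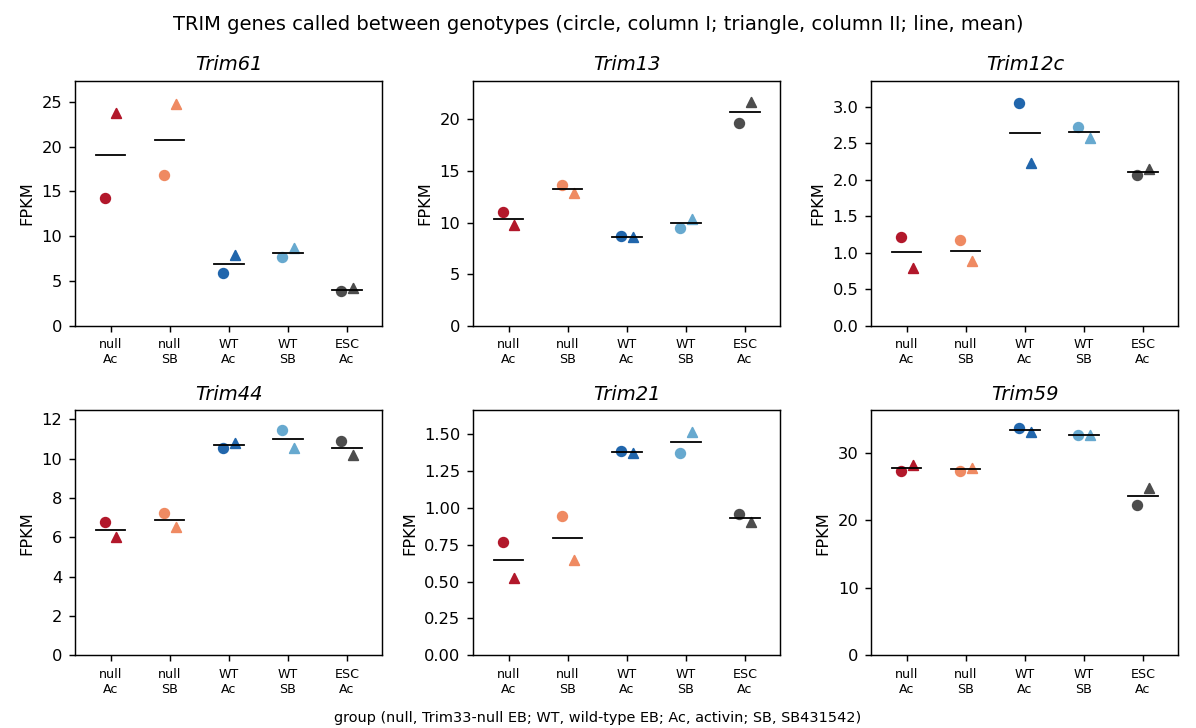
FPKM of the 6 TRIM members called between genotypes, 1 panel per gene, with a circle for column I, a triangle for column II and a line for the mean of the 2 libraries of each group. For Trim61, Trim12c, Trim44, Trim21 and Trim59 the 4 null libraries lie wholly above or below the 4 WT libraries.

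Trim61 is a mouse TRIM gene placed here with preimplantation and germline genes. It was at 14.3 and 23.8 FPKM in null EBs under activin and 16.9 and 24.8 FPKM in null EBs under SB431542. In WT EBs it was at 5.93 and 7.95 FPKM under activin and 7.65 and 8.67 FPKM under SB431542. All 4 null libraries were above all 4 WT libraries, and within the null both libraries of column II were above both of column I. The log2 change was 1.31 ± 0.28 (SE) (limma adjusted p = 0.0428) with activin and 1.23 ± 0.28 (adjusted p = 0.0488) with SB431542. With 1 library left out at a time the change stayed positive, but under activin it was called only without null column I (adjusted p = 0.0449, against 0.119 to 0.243 for the others), and under SB431542 it was not called (adjusted p = 0.0501 to 0.25). With only the libraries compared the limma adjusted p was 0.0833 under activin and 0.0602 under SB431542. Trim61 was called under neither treatment with no filter, nor under SB431542 with a filter at 5 FPKM. Without both null libraries of column II, a setting chosen after seeing the data, the changes were 0.96 and 0.97, from 1 null library a group. Trim60, with the same promoter window, stayed at 0.0483 to 0.124 FPKM in null EBs and 0.0142 to 0.0597 FPKM in WT EBs, and Trim75, the other neighbour, at 0.0590 to 0.166 and 0.00543 to 0.107 FPKM. The sums of 2-cell-like and fibroblast markers given above were also higher in null EBs. Within the null the fibroblast sum was higher in column II. The 2-cell-like sum was higher in column I (42.1 and 46.7, against 25.3 and 36.9 in column II). ESCs had a 2-cell-like sum of 28.9 to 31.8, with Trim61 at 3.90 and 4.18 FPKM. The part of these markers in the Trim61 difference was not tested.

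Trim12c, a mouse relative of the antiviral TRIM5, was at 1.22 and 0.795 FPKM in null EBs under activin and 1.17 and 0.890 FPKM in null EBs under SB431542. WT EBs had 3.05 and 2.22 FPKM under activin and 2.72 and 2.57 FPKM under SB431542. The null and WT libraries did not overlap. The log2 change was -0.86 ± 0.15 (limma adjusted p = 0.0265) with activin and -0.85 ± 0.15 (adjusted p = 0.0260) with SB431542. Neither was called with no filter, and the activin change was not called with only the libraries compared. Reads can be shared among Trim12c, Trim12a and Trim5, so a level of 1 of them is uncertain on its own.

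Trim44, which lacks a RING finger and carries a zinc finger of ubiquitin proteases, had 6.76 and 6.00 FPKM in null EBs under activin, against 10.6 and 10.8 FPKM in WT EBs. Under SB431542 it had 7.23 and 6.51 FPKM in null EBs and 11.5 and 10.6 FPKM in WT EBs. This was the member with the smallest adjusted p in both comparisons, with changes of -0.66 ± 0.08 (limma adjusted p = 0.0140) under activin and -0.61 ± 0.08 (adjusted p = 0.0138) under SB431542. Neither was called with only the libraries compared. All 4 null libraries lay below all 4 WT libraries.

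Trim21, the cytosolic receptor for antibody Fc parts, was at 0.769 and 0.523 FPKM in null EBs and 1.39 and 1.37 FPKM in WT EBs under activin. Its change was -0.54 ± 0.11 (limma adjusted p = 0.0415) under activin. Trim21 reached 1 FPKM in no null library and passed the filter through WT EBs alone, so its difference is in part a condition of its being tested, and with no filter it was not called (adjusted p = 0.0799). Under SB431542 it was at 0.945 and 0.644 FPKM in null EBs, against 1.37 and 1.52 FPKM in WT EBs, with a change of -0.45 ± 0.11 that was not called (adjusted p = 0.0602). Trim59 had the smallest called change, -0.26 ± 0.06 under activin (adjusted p = 0.0461). It had 27.3 and 28.2 FPKM in null EBs and 33.7 and 33.1 FPKM in WT EBs under activin, and was not called under SB431542 (-0.24 ± 0.06, adjusted p = 0.0553), where null EBs had 27.3 and 27.8 and WT EBs 32.8 and 32.7 FPKM. The 4 null libraries of both genes lay below the 4 WT libraries. With median-of-ratios scaling of the libraries Trim59 was not called under activin.

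Trim13 rose under SB431542, at 13.6 and 12.9 FPKM in null EBs and 9.50 and 10.3 FPKM in WT EBs, a change of 0.38 ± 0.08 (limma adjusted p = 0.0388). It was not called with no filter or with only the libraries compared. Under activin it had 11.0 and 9.72 FPKM in null EBs and 8.67 and 8.56 FPKM in WT EBs (0.24 ± 0.08, adjusted p = 0.112). The genotype difference of Trim13 was not shown to depend on treatment, since the test of that difference gave -0.15 ± 0.11 (adjusted p = 1).

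**Figure D3:**
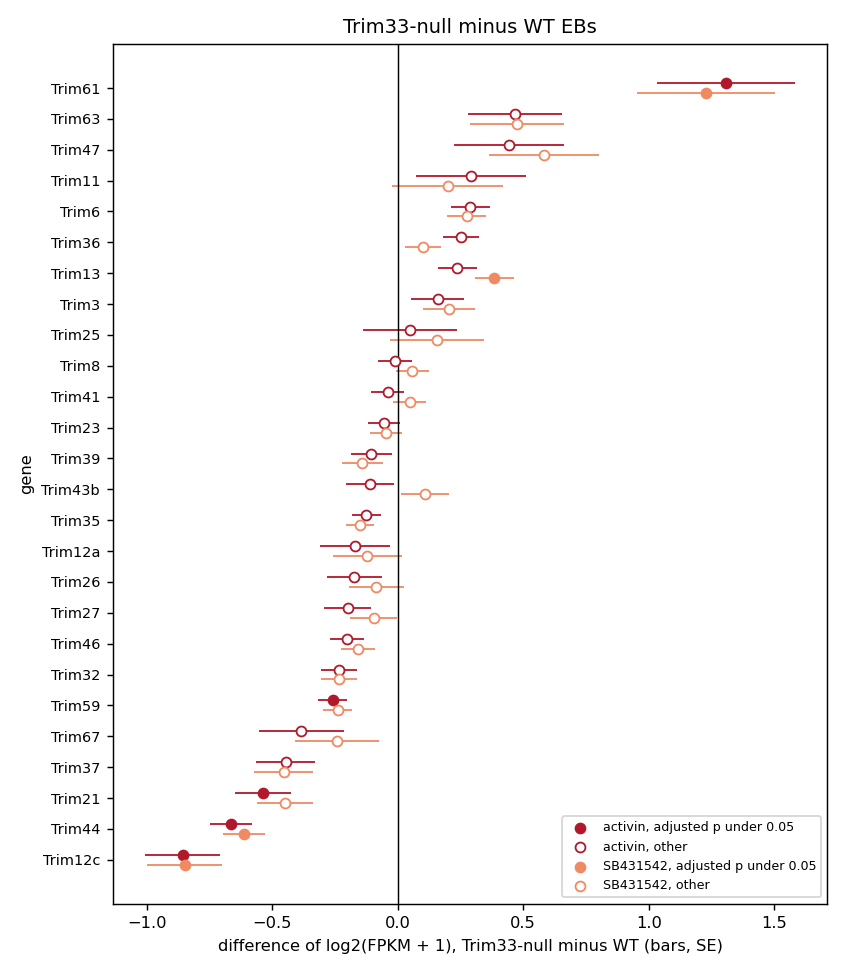
Difference of log2(FPKM + 1), Trim33-null minus WT EBs, for the 26 members tested, with SE bars, under activin (dark) and SB431542 (light); filled points passed an adjusted p of 0.05. Trim61 stands furthest right at 1.31 and 1.23, and Trim12c and Trim44 furthest left.

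Several members had large but uncalled differences. Trim63 was at 1.42 and 0.704 FPKM in null EBs and 0.446 and 0.492 FPKM in WT EBs under activin, a change of 0.47 ± 0.19 (limma adjusted p = 0.164). Under SB431542 it was at 1.25 and 0.819 FPKM in null EBs and 0.357 and 0.561 FPKM in WT EBs, a change of 0.47 ± 0.19 (adjusted p = 0.163). The null libraries were above the WT libraries, with column I the higher of the null. Trim47 had changes of 0.44 ± 0.22 under activin (adjusted p = 0.238) and 0.58 ± 0.22 under SB431542 (adjusted p = 0.148), with column II of the null at 1.63 and 1.41 FPKM, column I of the null at 0.867 and 0.771 FPKM, and WT EBs at 0.378 to 0.832 FPKM. By group mean under SB431542, Trim47 was at 2.88 times the WT level. Both genes reached 1 FPKM only in null libraries and passed the filter through them. Trim37, a ligase of histone H2A and of centriole assembly that is lost in mulibrey nanism, had -0.45 ± 0.12 under either treatment (adjusted p = 0.0688 under activin and 0.0682 under SB431542). It was at 3.98 to 4.89 FPKM in null EBs and 5.89 to 6.90 FPKM in WT EBs, without overlap. Over the 26 members the median change was -0.11 under activin and -0.07 under SB431542, against -0.03 and -0.02 for all genes.

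Taking the 4 null libraries against the 4 WT libraries across treatments, 4 of 26 members past the filter (15.4%, against 15.6% of all genes) were wholly higher and 6 (23.1%, against 24.6%) wholly lower. Both shares are close to those of all genes. The higher ones were Trim6, Trim36, Trim61 and Trim63, and the lower ones Trim12c, Trim21, Trim32, Trim37, Trim44 and Trim59. Over genes, differences between columns I and II correlated across treatments, at 0.909 in null EBs and 0.459 in WT EBs. The 4 libraries of a genotype therefore cannot be counted as 4 separate replicates, nor the treatments as separate tests of genotype. Among 28 members under the filter but above 0 in all 8 libraries, 2 were wholly higher (7.14%, against 13.7%), Trim16 and Trim72, and 5 wholly lower (17.9%, against 10.4%), Trim5, Trim34a, Trim34b, Trim45 and Trim56.

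Within the null, the libraries also separated by column numeral, about as often among the members (19 of 26, 73.1%) as among all genes (74.1%). Both libraries of column II were above both of column I for 6 of 26 members (23.1%, against 34.8% of all genes), Trim3, Trim11, Trim39, Trim47, Trim59 and Trim61, and below for 13 (50.0%, against 39.3%). Of the 6 members called between genotypes, all but Trim13 are among these, Trim59 and Trim61 above and Trim12c, Trim21 and Trim44 below. The fibroblast marker sum, highest in null column II, moved with the numeral, and its part in these differences was not tested. Calls rest on few libraries. In limma each library of the compared groups was left out in turn, which leaves its group with no spread of its own. In every such fit fewer members were called than with all libraries, and so were fewer of all genes. The loss was therefore not particular to the members. The median change of the members ran from -0.20 to -0.04 under activin, against -0.05 to -0.02 for all genes. Under SB431542 it ran from -0.12 to 0.01, against -0.03 to -0.01 for all genes. With both null libraries of column I left out, a setting chosen after seeing the data, the spread came from the WT EBs alone. Counts of calls from that setting cannot be set beside those of other settings. The median change of the members was then -0.20 under activin and -0.12 under SB431542, against -0.04 and -0.03 for all genes. Without both null libraries of column II it was -0.04 and 0.01, against -0.04 and -0.02 for all genes.

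Among protein-coding genes, the chromosome 7 cluster holds Trim6, Trim34a, Trim5, Trim12a, Trim34b and Trim12c side by side. Trim30b, Trim30c, Trim30a and Trim30d follow after 1 other protein-coding gene. Neighbours differed widely in level. Trim6 averaged 24.9 FPKM over the 10 libraries and Trim34b 0.222 FPKM. Trim5 was at 0.255 to 0.431 FPKM in null EBs and 0.720 to 0.967 FPKM in WT EBs, and Trim34a at 0.314 to 0.370 and 0.464 to 0.647 FPKM. Trim34b was at 0.104 to 0.128 FPKM in null EBs and 0.185 to 0.280 FPKM in WT EBs. All 4 null libraries lay below all 4 WT libraries for each of these genes and for Trim12c. Over all genes, 10.4% of those under the filter and above 0 in all 8 EB libraries were wholly lower. Past the filter, where Trim12c lies, 24.6% were. Trim12a, whose promoter window shares the 241-base run with Trim5, did not follow this: it was at 5.04 to 6.68 FPKM in null EBs and 6.26 to 7.01 FPKM in WT EBs, with overlap, and changes of -0.17 ± 0.14 with activin (limma adjusted p = 0.456) and -0.12 ± 0.14 with SB431542 (adjusted p = 0.599). Trim6, at the start of the cluster, was at 24.2 to 26.4 FPKM in null EBs and 19.5 to 21.7 FPKM in WT EBs, with uncalled changes of 0.29 ± 0.08 under activin (adjusted p = 0.0721) and 0.27 ± 0.08 under SB431542 (adjusted p = 0.0837).

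**Figure D4:**
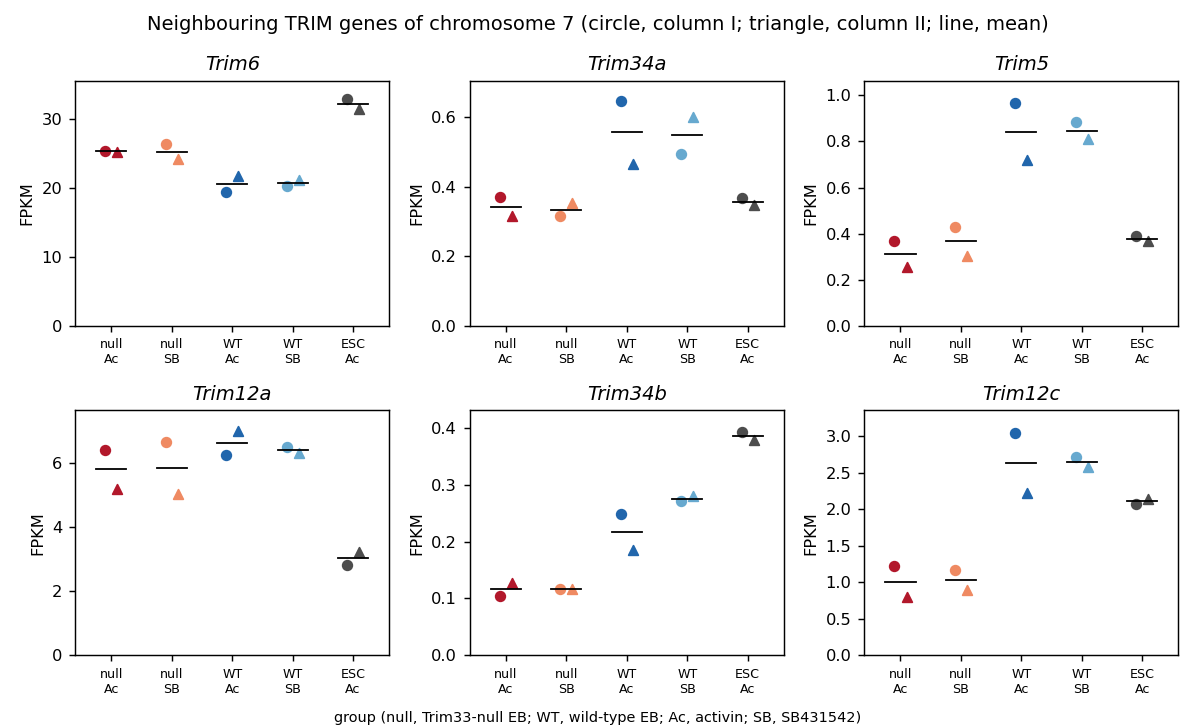
FPKM of 6 TRIM genes of chromosome 7, adjacent among protein-coding genes, in their order along the chromosome. A circle stands for column I, a triangle for column II and a line for the group mean. Trim34a, Trim5, Trim34b and Trim12c were lower in each null library than in each WT library, Trim6 was higher, and Trim12a overlapped. Of all genes, 10.4% under the filter and above 0 in all 8 EB libraries, and 24.6% past it, were likewise wholly lower.

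By role, the antiviral list (16 genes, 6 tested) had 2 calls under activin, Trim12c and Trim21 lower, and 1 under SB431542, with medians of -0.17 and -0.10. Trim21 passed the filter through WT EBs alone, and over all genes 8.09% were called under activin and 8.08% under SB431542. The 4 genes studied in stem cells, Trim6, Trim8, Trim25 and Trim32, had none in either comparison. The preimplantation and germline list (9 genes, 3 tested) had Trim61 higher in both. Among members with other carboxy-terminal parts or without a RING (9 genes, 5 tested), Trim44 and Trim59 were lower under activin, and Trim13 was higher and Trim44 lower under SB431542. The NHL-repeat, MHC cluster, muscle, microtubule-linked and widely expressed ligase lists had no call.

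No TRIM member was called between activin and SB431542 in the fit without a term for the column numeral. Of the 26 tested with limma, 0 were called in WT EBs, against 0.221% of all genes (25, all higher), and 0 in null EBs, against 0.115% (13, all higher). At an unadjusted p under 0.05 there were 1 and 2 members. In WT EBs 23 of 26 changes were under 0.2 in size on the log2 scale, and in null EBs 24 were, with SEs from 0.06 to 0.28. Irf1, an interferon pathway regulator outside the family, passed in the same fits at 1.71 ± 0.11 in WT EBs (limma adjusted p = 0.00543) and 1.40 ± 0.11 in null EBs (adjusted p = 0.0164).

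Trim67, a neuronal member that binds the netrin receptor DCC, had the largest difference between treatments. It was at 1.58 and 1.15 FPKM under activin, against 0.693 and 0.466 FPKM under SB431542, in WT EBs. In null EBs it was at 1.05 and 0.589 FPKM under activin and 0.450 and 0.226 FPKM under SB431542. The activin libraries were above the SB431542 libraries within each genotype, by means 2.35 times as high in WT EBs and 2.42 times as high in null EBs. It reached 1 FPKM only in activin libraries and passed the filter through them. The log2 change was 0.58 ± 0.17 in WT EBs (limma unadjusted p = 0.0124, adjusted p = 1.00) and 0.44 ± 0.17 in null EBs (unadjusted p = 0.0384, adjusted p = 1.00). Neither passed the adjustment over all genes in this fit, which has no term for the column numeral. The call of Trim67 differed with such a term, as given below with the dependence on processing.

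Trim13 lay on the other side. It had 11.0 and 9.72 FPKM under activin in null EBs, against 13.6 and 12.9 FPKM under SB431542, a change of -0.33 ± 0.08 (limma unadjusted p = 0.00507, adjusted p = 0.786), and -0.18 ± 0.08 in WT EBs (adjusted p = 1.00). The difference of the activin response between null and WT EBs was called for 0 of 26 members and for 0% of all genes, with 0 members and 24 genes at an unadjusted p under 0.05. The interaction values ran from -0.22 to 0.15 with SEs up to 0.39, so a difference of that size was not detectable for the more variable members.

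Between WT EBs and E14 ESCs under activin, the family shifted in both directions. Trim25 and Trim13 were much lower in EBs and Trim12a and Trim32 higher. Of 27 members tested, 16 (59.3%) were called, against 56.9% of all genes; 9 were higher, against 30.5% of all genes, and 7 lower, against 26.4%. Those shares are near the background. Of the 9 higher, 4 (Trim3, Trim21, Trim46 and Trim67) reached 1 FPKM only in EBs, and of the 7 lower, 1 (Trim2) only in ESCs, so for these 5 the difference is in part a condition of being tested. EBs and ESCs also came from different lines, so cell state and line cannot be told apart. With median-of-ratios scaling the median of all genes fell by 0.12, the share higher among all called genes was 39.5%, against 53.6% with the FPKM as deposited, and Trim27 and Trim37 were then called lower and Trim21 was not called.

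**Figure D5:**
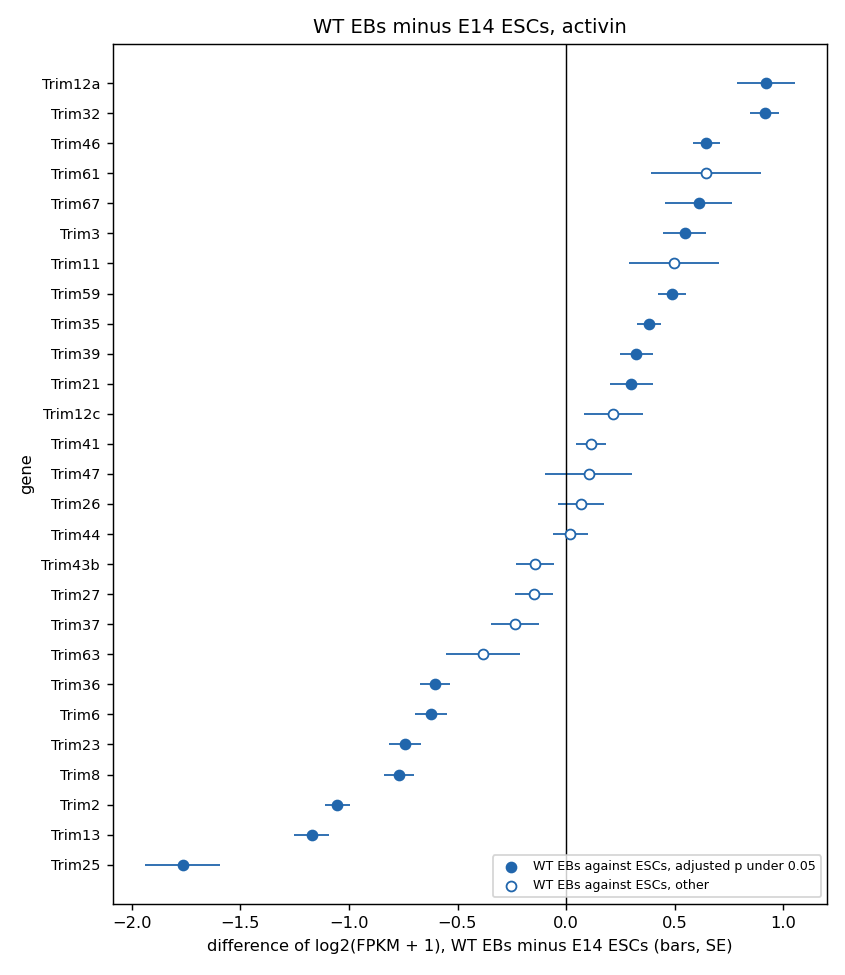
Difference of log2(FPKM + 1), WT EBs minus E14 ESCs under activin, for the 27 members tested, with SE bars; filled points passed an adjusted p of 0.05. Values run from -1.77 for Trim25 to 0.92 for Trim12a.

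Trim25, the ligase of the RNA sensor RIG-I and a cofactor of Lin28a in let-7 turnover, was at 6.24 and 5.81 FPKM in WT EBs, against 23.5 and 22.2 FPKM in ESCs. Its log2 change was -1.77 ± 0.17 (limma adjusted p = 0.000123). All 8 EB libraries were below both ESC libraries. Trim13 was at 8.67 and 8.56 FPKM in WT EBs and 19.7 and 21.7 FPKM in ESCs (-1.17 ± 0.08, adjusted p = 2.77e-05). Trim2, an NHL-repeat ligase of neurofilaments, was at 0.576 and 0.527 FPKM in WT EBs and passed the filter through the ESC libraries alone (2.27 and 2.17 FPKM).

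Trim12a was at 6.26 and 7.01 FPKM in WT EBs, against 2.83 and 3.24 FPKM in ESCs (0.92 ± 0.13, limma adjusted p = 0.000790). Trim32, an NHL-repeat ligase that limits neural progenitor growth, was at 7.44 and 7.62 FPKM in WT EBs and 3.57 and 3.48 FPKM in ESCs (0.91 ± 0.07, adjusted p = 3.66e-05). Trim46, which bundles microtubules at the axon initial segment and passed the filter through EBs alone, was 2.51 times as high in WT EBs as in ESCs (0.64 ± 0.06, adjusted p = 0.000108). Trim67 was at 1.58 and 1.15 FPKM in WT EBs and 0.601 and 0.484 FPKM in ESCs (0.61 ± 0.15, adjusted p = 0.0111). Its null EB libraries under SB431542 were below both ESC libraries, so the order held for the activin-treated WT libraries and not for all EBs.

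Of the 4 genes studied in stem cells, 3 were lower in EBs and 1 higher: Trim6 (-0.62 ± 0.07), Trim8, a modulator of STAT3 signalling (-0.77 ± 0.07), and Trim25, against Trim32. Trim23, with an ARF domain, was lower (-0.74 ± 0.07), as was Trim36 (-0.60 ± 0.07). Higher with smaller changes were Trim3, Trim59, Trim35, Trim39 and Trim21, at 0.55, 0.49, 0.38, 0.32 and 0.30. With no filter Trim21 was not called (adjusted p = 0.0624). Over 8 EB libraries and 2 ESC libraries, 9 members (33.3%, against 34.4% of all genes) were wholly higher in EBs and 9 (33.3%, against 29.3%) wholly lower. With 1 library left out at a time, 13 or 14 members were called. Trim21 was lost each time, Trim67 without WT column I or ESC column II, and Trim39 without WT column II, while Trim2 was not tested when either ESC library was left out.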

How the data were processed

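The authors deposited 1 table of FPKM values with a column for each of the 10 RNA-seq libraries, and all 10 columns were used. The series holds 23 samples, and its 8 ATAC-seq and 5 ChIP-seq samples were not analysed here. Per the submitters' processing notes the build was mm9 and the tools were STAR 2.4.0, Cufflinks 2.2.1, Bowtie2 2.2.2 and CASAVA 1.8, with no role given. Annotation, read filters and strandedness: not given in the sources used here. Of 29145 entries, 113 repeats of a symbol were left out in favour of the entry with the highest mean. Values under 0.06 FPKM were checked for steps of whole reads: 4.71% to 14.5% of them fell on the most frequent ratio between libraries (tolerance 0.02 on the log2 scale), so reads could not be recovered and no count test was run.

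Genes that reached 1 FPKM in 2 or more of the fitted libraries were tested on log2(FPKM + 1) with limma 3.58.1 in R 4.3.3, with an intensity trend, Benjamini-Hochberg adjustment over all genes tested and a threshold of 0.05. Changes are on that scale, with the standard error (SE), and understate those of low genes. The 8 EB libraries were fitted together, with 4 residual degrees of freedom, and all 10 for EBs against ESCs. These fits treat the libraries as separate. Over genes, differences between columns I and II correlated across treatments, at 0.909 in null EBs and 0.459 in WT EBs. The p-values between genotypes may therefore be too small. With 2 libraries a group, the smallest two-sided p of an exact permutation test is 0.333, and limma's calls depend on a spread estimated over all groups. The procedure was tested on simulated data with noise drawn separately for each library. In the real data the column differences correlated across treatments. That simulation therefore could not give the error rate of the genotype calls. Alternatives were a pseudocount of 0.1, no filter, a filter at 5 FPKM, median-of-ratios scaling, no trend, fits on only the libraries compared, a replicate block and each library left out. A further pair, without both null libraries of column I or of column II, were chosen after seeing the data.

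The members and all gene lists were chosen with earlier results of these data known. Named were members called in any comparison, the 3 largest changes each way in each comparison and the 12 highest means, and under the filter the 3 highest single values. Those shown for non-overlap or position were named after their values were seen. Promoter windows and gene order come from RefSeq tables (GRCm38.p6), while the table's build is mm9, and no coordinates were moved between builds.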

Additional observations from a re-analysis of the deposited data

How the results depend on the processing

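Values rest on 2 libraries a group, and depth is unknown. Of the 25 results for single members that were called, 12 lost the call in at least 1 alternative and kept their direction. Over all 25, 58 values were without a call and 197 with one. The 12 included every call between genotypes, under either treatment. The others were Trim21, Trim39 and Trim67 between WT EBs and ESCs.

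All genes called, null against WT: 915 under activin and 914 under SB431542, but 401 and 393 with a filter at 5 FPKM, 50 and 279 with only the libraries compared, 3355 and 3380 without both null libraries of column I, and 8 to 249 and 3 to 643 with 1 library left out. Members called: 5 under activin, but 2 with no filter, 2 at 5 FPKM, 0 with only the libraries compared, 13 without both of column I and 0 to 3 with 1 library left out. Under SB431542 members called were 4, but 2 at 5 FPKM, 1 with only the libraries compared, 10 without both of column I and 0 to 2 with 1 library left out. Without both null libraries of a column, each null group holds 1 library and the spread comes from the WT EBs alone. Those counts therefore cannot be set beside the others. The cause of the other changes was not tested.

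Activin against SB431542 in WT EBs: 25 genes, but 15 with no filter, 16 at 5 FPKM, 38 with only the libraries compared and 4 to 5 with 1 library left out. In null EBs: 13 genes, but 6 with no filter, 0 with only the libraries compared, 4 and 5 without both libraries of column I and of column II, and 4 to 8 with 1 library left out. No member was called in these settings. With the replicate block (column numeral within genotype), 123 and 83 genes were called in WT and null EBs, and 1 member in each, Trim67 (adjusted p = 0.0115 and 0.0427). By the labels the numerals are a shared number only. The difference between column I and column II under activin correlated with that under SB431542 over genes at 0.909 in null EBs and 0.459 in WT EBs. Over the 26 members tested the correlation was 0.966 and 0.418. The interaction gave 0 genes and 0 members with the block and with 1 library left out.

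WT EBs against ESCs: 6634 genes, but 3481 at 5 FPKM and 4610 to 5343 with 1 library left out. Members called were 16 of 27 tested, 29 of 61 with no filter and 8 of 14 at 5 FPKM. For all genes these counts were 6634 of 11661, 9593 of 25653 with no filter and 3481 of 6273 at 5 FPKM. The median change of members became -0.0088 with median-of-ratios scaling and 0.0035 with no filter. With no filter it also became -0.0055 (null against WT, activin), 0.0032 (null against WT, SB431542) and -0.0032 (activin response, WT).

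Directions that reversed were all of uncalled values. With 1 library left out, Trim47 ran from -0.12 to 0.35 for activin in null EBs. In the interaction, Trim11 ran from -0.18 to 0.36, Trim61 from -0.27 to 0.43 and Trim67 from -0.33 to 0.041. Trim61 was -0.0067 there without both null libraries of column II.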

Other observations

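Of 5 genes of TRIM type that carry other symbols, 3 passed the filter in EBs. Pml, the scaffold of nuclear bodies, rose in null EBs, with 21.4 and 20.8 FPKM under activin and 24.6 and 22.6 FPKM under SB431542, against 15.5 and 16.2 and 16.4 and 16.6 FPKM in WT EBs. Its log2 change was 0.39 ± 0.07 (limma adjusted p = 0.0242) under activin and 0.49 ± 0.07 (adjusted p = 0.0135) under SB431542. Mid1, the microtubule-linked ligase of Opitz syndrome, fell in null EBs to 9.24 and 8.42 FPKM, against 15.6 and 18.5 FPKM in WT EBs under activin (-0.88 ± 0.13, adjusted p = 0.0173), and by 0.92 ± 0.13 under SB431542 (adjusted p = 0.0143). It was lower again in WT EBs than in ESCs, which had 34.7 and 34.3 FPKM (-0.98 ± 0.12, adjusted p = 0.000306). Bspry did not pass between genotypes and was higher in WT EBs than in ESCs (0.28 ± 0.10, adjusted p = 0.0407).

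The interferon-type list of 21 genes held 8 tested in EBs. Ube2l6, the conjugating enzyme of Isg15, rose in null EBs: it was at 51.0 and 115 FPKM under activin and 65.4 and 113 FPKM under SB431542 in null EBs, and at 9.86 to 11.7 FPKM in WT EBs (2.82 ± 0.40, limma adjusted p = 0.0163 under activin, and 2.81 ± 0.40, adjusted p = 0.0148, under SB431542). Irf1 was lower in null EBs under activin, at 6.13 and 4.79 FPKM, against 10.5 and 9.03 FPKM in WT EBs (-0.74 ± 0.11, adjusted p = 0.0195). Bst2, Ddx58, Ifnar1, Irf3, Irf9 and Stat2 were called in neither genotype comparison, and Ifih1 and Rsad2 were under 0.1 FPKM in all 10 libraries.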
